A study of Mus musculus with 12 samples.

Results

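The genes described here are 6 of the 13552 genes in the table, picked by symbol: the 3 myosin heavy chain genes Myh6, Myh7 and Myh7b, and the 3 alpha-actin genes Acta1, Actc1 and Acta2. All 6 were present and all 6 passed the filter on low values. Myosin heavy chain is the motor protein of the thick filament. In the ventricle of the adult mouse it is mostly the fast alpha isoform, which Myh6 encodes, while Myh7 encodes the slow beta isoform that dominates before birth and returns under pressure overload, and Myh7b encodes a related slow/tonic chain. Alpha-actin builds the thin filament on which myosin pulls. Actc1 encodes its cardiac form, Acta1 the skeletal form that the fetal and the overloaded heart also use, and Acta2 the form of smooth muscle cells and activated fibroblasts. The rise of Myh7 relative to Myh6 and of Acta1 is a textbook readout of the fetal gene programme.

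RNA was sequenced from the hearts of 12 mice, collected 9 h after transverse aortic constriction (TAC), which raises the pressure the left ventricle works against, or after sham surgery. Wild-type (WT) and knock-in (KI) mice each had a sham and a TAC group, which gives 4 groups of 3 mice. KI mice were homozygous for Bcl-xL with serine 14 changed to alanine, an inherited change present in every cell type and not in cardiomyocytes alone, and the line had passed through a Cre deleter strain to remove its selection cassette. All mice were C57BL/6 (C57BL/6J in the methods) males of 8 to 10 weeks at surgery, and the methods name purchased WT mice, so genotype and colony cannot be told apart. The comparisons asked how TAC changed the isoforms in each genotype and whether the KI hearts differed.

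Depth was 23650213 to 32455150 reads on genes per heart, and the 6 genes were covered by at least 439 reads in any heart (Myh7b). Within a group, hearts correlated at r = 0.946 to 0.991 across genes. Of the cardiomyocyte markers 7 of 7 were in the table and their summed level was 3324 to 6794 RPKM (reads on a gene relative to its exon length in kilobases and to the reads on all genes of that heart) in every heart, whereas 0 of 8 fast skeletal muscle markers and 1 of 5 atrial markers were listed. Which part of the heart was taken is not given in the sources used here. Since the RNA is of heart tissue, fewer cells of a type and less RNA per cell cannot be told apart.

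By mean RPKM over the 12 hearts, which is a level per exon length, the order was Actc1 (11320, rank 4 of all genes), Myh6 (3114, rank 11), Acta1 (479.2, rank 58), Myh7 (97.6, rank 359), Acta2 (47.1, rank 834) and Myh7b (10.1, rank 3592). The length takes in all annotated exons of a gene, 6726 bases for Myh6 and 8616 for Myh7. Annotated exons that are not used in the heart lower the RPKM of a gene. Levels and percentages between genes are therefore approximate. In sham hearts the ranges over mice of Acta1 (110 to 360 RPKM) and Myh7 (26.5 to 145 RPKM) overlapped, as did those of Myh7 and Acta2 (21.9 to 51.2 RPKM). The place of Myh7 above Acta2 came from the WT hearts: in KI hearts the mean of Acta2 was the higher one, at 33.6 against 31.1 RPKM after sham and 49.6 against 33.9 RPKM after TAC, with overlapping ranges. Actc1 made up 98.3 ± 0.17% and Myh6 97.8 ± 1.31% of their families in WT sham hearts (mean ± SD, n = 3 here and throughout).

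**Figure D1:**
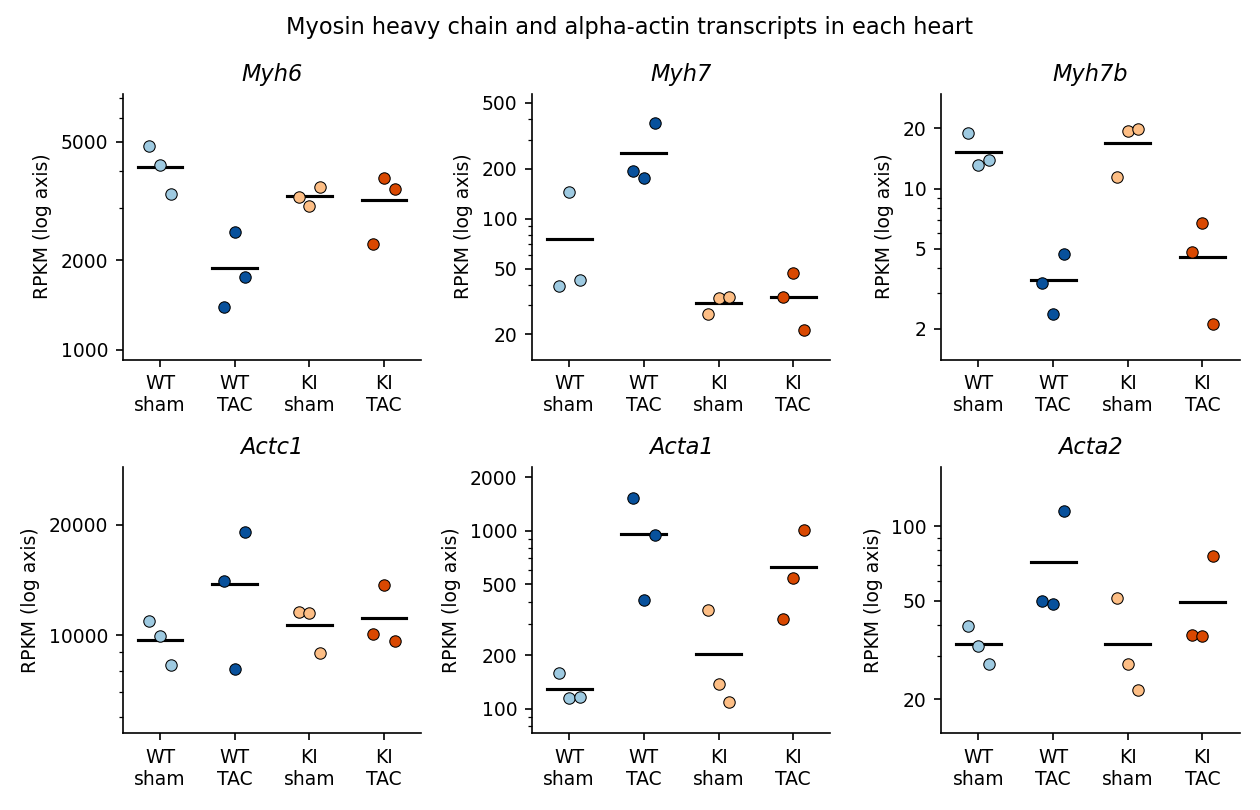
Level of each gene in each heart (RPKM, log axis, scaled separately for each gene), with points for the 3 mice of a group and a bar for their mean. Myh7 is at 176 RPKM or more in all 3 WT TAC hearts and at most 47.0 RPKM in all 6 KI hearts, while Myh7b is lower after TAC in both genotypes.

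Myh6 fell and Myh7 rose after TAC in WT hearts, and neither passed the test in KI hearts. Myh6 was 4836, 4169 and 3341 RPKM in WT sham mice 1, 2 and 3 and 1392, 2497 and 1761 RPKM in WT TAC mice 7, 9 and 10. Every WT TAC heart was therefore below every WT sham heart. On the log2 scale this was a fall by 1.15 (standard error 0.26), with an adjusted p = 0.0129 from limma across all genes. Myh7 was 39.0, 145 and 42.6 RPKM in the WT sham hearts and 195, 176 and 380 RPKM in the WT TAC hearts. The groups again did not overlap, although sham mouse 2 came close to the lowest TAC heart. It rose by 1.90 on the log2 scale (adjusted p = 0.0143, standard error 0.44). In KI hearts Myh6 was 3267, 3043 and 3522 RPKM in sham mice 1, 2 and 3 and 2274, 3784 and 3479 RPKM in TAC mice 5, 6 and 7. KI TAC mouse 5 had the lowest value, mouse 7 lay within the sham range and mouse 6 above it. Myh7 was 26.5, 33.2 and 33.5 RPKM in KI sham and 33.6, 47.0 and 21.1 RPKM in KI TAC hearts, with TAC values on both sides of the sham values. The log2 changes in KI hearts were −0.075 for Myh6 (95% confidence interval −0.64 to 0.49, adjusted p = 0.862) and 0.060 for Myh7 (−0.89 to 1.01, adjusted p = 0.937). The WT call of Myh6 was lost without WT TAC mouse 7 (−0.96, adjusted p = 0.0733) or with quantile normalization (−0.88, adjusted p = 0.111), and that of Myh7 without WT sham mouse 1 (1.57, adjusted p = 0.0608) or 3 (1.63, adjusted p = 0.0652).

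Among WT TAC hearts 4 of the 6 genes passed the threshold of an adjusted p of 0.05, with 2 higher (Acta1, Myh7) and 2 lower (Myh6, Myh7b), against 6.96% of all 11240 genes tested higher and 4.60% lower. Groups without overlap were found for 3 genes higher (Acta1, Myh7, Acta2) and 2 lower, against 20.0% and 15.0% of all genes. In KI hearts 2 of 6 passed, with Acta1 higher and Myh7b lower, against 8.57% and 14.7% of all genes, and the groups did not overlap for Myh7b (lower), against 13.6% of all genes without overlap and higher and 24.7% lower.

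The Myh7 to Myh6 ratio, which no scaling of a library can change, set the WT TAC hearts apart from the other 9. Myh7 was 0.81%, 3.48% and 1.27% of Myh6 in WT sham mice 1, 2 and 3 and between 7.04% (mouse 9) and 21.6% (mouse 10) in the 3 WT TAC mice. It was 0.81%, 1.09% and 0.95% in KI sham and 1.48%, 1.24% and 0.61% in KI TAC hearts. The mean log2 ratio was −6.03 ± 1.08 in WT sham, −2.96 ± 0.81 in WT TAC, −6.73 ± 0.21 in KI sham and −6.59 ± 0.68 in KI TAC hearts. It was 8.41-fold higher after TAC than after sham in WT hearts (exact permutation test, two-sided p = 0.1, the smallest that 3 against 3 can give, and 0.2 after adjustment over the 10 ratio comparisons made). The KI change was 1.10-fold (exact p = 0.8), and among TAC hearts the KI ratio was 12.4-fold lower than the WT ratio with no overlap (exact p = 0.1, adjusted p = 0.2). The difference between the genotypes in the response to TAC was −2.94 log2 units (exact permutation of genotype labels within sham and within TAC hearts, 400 arrangements, p = 0.095, adjusted p = 0.2), which did not pass the threshold. WT sham mouse 2 widened the WT sham group: without it the WT change was 3.67 log2 units in place of 3.07.

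**Figure D2:**
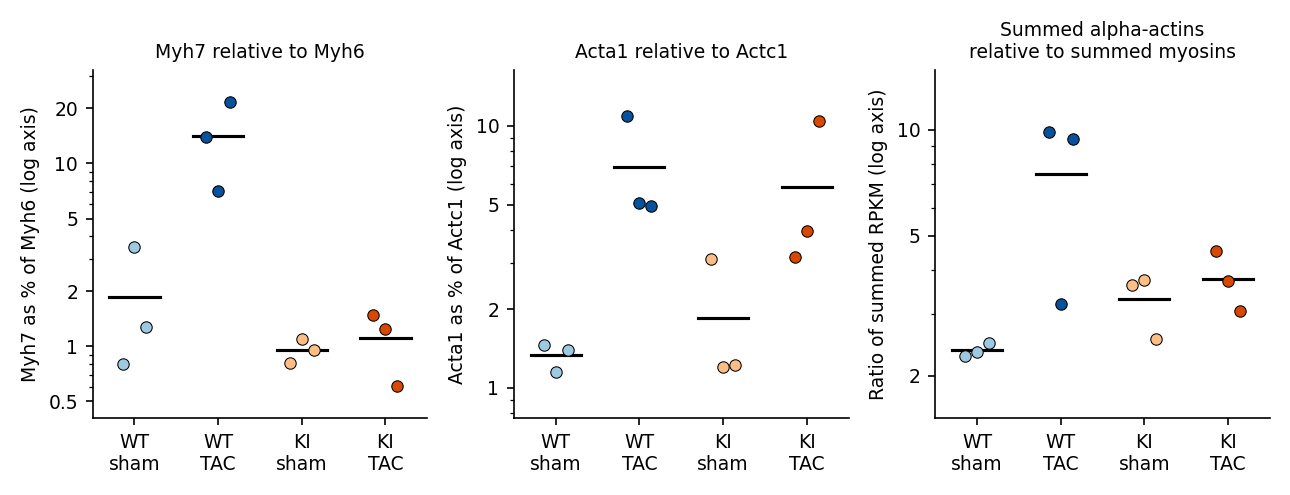
Myh7 as a percentage of Myh6 (left), Acta1 as a percentage of Actc1 (middle) and the 3 alpha-actins summed over the 3 myosin heavy chains summed (right), all from RPKM on log axes, with a point for each heart and a bar for the group mean. Myh7 reaches 7.04% to 21.6% of Myh6 in WT TAC hearts and at most 3.48% in any other heart, whereas Acta1 relative to Actc1 is higher after TAC in both genotypes.

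The 2 genes lie side by side on chromosome 14 of GRCm38 (Myh6, ENSMUSG00000040752, 54941921 to 54966927; Myh7, ENSMUSG00000053093, 54970684 to 54994626; both on the minus strand) and are close in sequence. Of the 8953 different stretches of 75 bases, the read length, in annotated Myh7 transcripts, 947 also occur in Myh6, which is 10.6% of those of Myh7 and 13.7% of those of Myh6. Reads from these stretches cannot be told apart, and how the counting shared them was not tested.

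Myh7b (ENSMUSG00000074652, chromosome 2, 155611212 to 155634307, plus strand) fell after TAC in both genotypes. In WT hearts it was 19.0, 13.0 and 13.8 RPKM after sham and 3.37, 2.38 and 4.71 RPKM after TAC. In KI hearts it was 11.5, 19.3 and 19.9 RPKM after sham and 4.84, 6.75 and 2.10 RPKM after TAC. Within each genotype every TAC heart lay below every sham heart, as was so for 15.0% of all genes in WT and 24.7% in KI hearts. The log2 fold changes were −1.88 in WT (standard error 0.32, adjusted p = 0.00264) and −1.75 in KI hearts (standard error 0.32, adjusted p = 0.00176), and both calls held under every alternative tried. The difference between these responses was 0.13 log2 units with a 95% confidence interval of −0.83 to 1.09. Relative to Myh7, Myh7b was 30.1 ± 20.0% in WT sham, 1.44 ± 0.26% in WT TAC, 53.6 ± 8.98% in KI sham and 12.9 ± 2.58% in KI TAC hearts.

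The promoters of muscle genes are known for a few short control sites. Of the windows from 250 bases before to 50 after the annotated starts (RefSeq, GRCm38.p6), those of Actc1 and Acta1 each hold a CArG box, the site of serum response factor, which 1.63% of 32851 windows hold. The search took only the exact form: CC, a run of A and T alone, then GG. No box of that form was found in the window of Acta2, and variant boxes with a changed base were not searched for. The boxes are shown because they belong to the pair whose ratio is compared here; capitals mark the box, and the flanks are 10 bases on each side, read 5′ to 3′ on the gene's strand (minus for both).
Actc1, 47 bases before the start, chr2:114052903-114052932: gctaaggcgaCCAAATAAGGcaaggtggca
Acta1, 73 bases before the start, chr8:123894829-123894858: tgcccgacacCCAAATATGGcttgggaagg
The letters CATTCC, the core of the site of TEAD factors, were searched on both strands and are in 14.7% of all windows. They occur in the windows of Acta1, Acta2, Myh6 and Myh7 (for Myh7 in 1 of its 2 windows), shown for the members that TAC changed, with the match in capitals and the bases read on the gene's strand.
Acta1, 46 bases before the start, chr8:123894806-123894831: agggcagcaaCATTCCttcggggcgg
Myh6, 206 bases before the start, chr14:54966798-54966823: ttggggaggaGGAATGtgcccaagga
Myh7, 201 bases before the start, chr14:54994812-54994837: agtgagccgtGGAATGttagagatat
In Myh6 and Myh7 the match is on the opposite strand, so that it reads GGAATG here. Such a match is a description of these windows and not a site shown to be bound, and neither motif was found in the window of Myh7b.

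Acta1 (ENSMUSG00000031972, chromosome 8, 123891769 to 123894751, minus strand) rose after TAC in both genotypes. In WT hearts it was 160, 115 and 116 RPKM after sham and 1525, 411 and 947 RPKM after TAC. The lowest TAC heart was thus above the highest sham heart, and Acta1 rose by 2.70 on the log2 scale (adjusted p = 0.00505, standard error 0.52). In KI hearts it was 360, 138 and 110 RPKM after sham and 318, 544 and 1007 RPKM after TAC. KI sham mouse 1 was above KI TAC mouse 5, so the groups overlapped. The rise was 1.66 on the log2 scale (adjusted p = 0.0328, standard error 0.52). This call was lost without KI sham mouse 2 or 3 or KI TAC mouse 6 or 7 (adjusted p = 0.0741 to 0.138) and with quantile normalization (1.48, adjusted p = 0.0710). The difference between the responses of KI and WT hearts was −1.04 log2 units (95% confidence interval −2.61 to 0.53, adjusted p = 0.506).

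Actc1 (ENSMUSG00000068614, chromosome 2, 114047282 to 114053548, minus strand) passed the test in no comparison. It was 10941, 9956 and 8276 RPKM in WT sham hearts, 14035, 8113 and 19135 RPKM in WT TAC, 11587, 11457 and 8953 RPKM in KI sham and 10075, 13656 and 9647 RPKM in KI TAC hearts. The WT TAC hearts ranged from below the lowest to well above the highest sham heart. The log2 fold changes after TAC were 0.42 in WT (95% confidence interval −0.20 to 1.04, adjusted p = 0.359) and 0.053 in KI hearts (−0.57 to 0.67, adjusted p = 0.913).

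Acta1 was 1.46%, 1.15% and 1.40% of Actc1 in WT sham mice 1, 2 and 3 and 10.9%, 5.06% and 4.95% in WT TAC mice 7, 9 and 10. In KI hearts it was 3.11%, 1.20% and 1.22% after sham and 3.16%, 3.99% and 10.4% after TAC. TAC hearts were above sham hearts of the same genotype without overlap, although KI sham mouse 1 came close to KI TAC mouse 5. The ratio was 4.88-fold higher after TAC in WT and 3.06-fold higher in KI hearts (exact permutation tests, two-sided p = 0.1 for each and adjusted p = 0.2, n = 3 against 3). The difference between these responses was −0.67 log2 units (exact permutation p = 0.325, adjusted p = 0.542).

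Acta2 (ENSMUSG00000035783, chromosome 19, 34241090 to 34255590, minus strand) was 39.5, 32.9 and 27.8 RPKM in WT sham hearts, 50.1, 48.8 and 116 RPKM in WT TAC, 51.2, 27.7 and 21.9 RPKM in KI sham and 36.3, 36.2 and 76.2 RPKM in KI TAC hearts. The WT groups did not overlap and the KI groups did. Neither the WT value of 0.97 on the log2 scale (adjusted p = 0.117, standard error 0.38) nor the KI value of 0.55 (standard error 0.38, adjusted p = 0.319) passed the threshold. Of 6 other smooth muscle markers 1 was called higher (Cnn1, 1.16) and 1 lower (Smtn, −0.87) in WT hearts and 1 lower in KI hearts (Smtn, −1.17). Of all genes 6.96% were called higher and 4.60% lower in WT hearts and 14.7% lower in KI hearts. The list medians were 0.20 in WT and 0.16 in KI hearts, beside 0.035 and −0.10 for all genes. The WT call of Smtn was lost with quantile normalization, in the fit of the 2 groups compared and when any 1 sham mouse or TAC mouse 7 or 9 was left out (adjusted p = 0.0504 to 0.140). Smtn made up most of the summed level of the 6, at 97.8 and 54.7 RPKM of 108 and 69.2 RPKM in WT and 110 and 49.9 RPKM of 118 and 59.4 RPKM in KI hearts after sham and TAC.

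**Figure D3:**
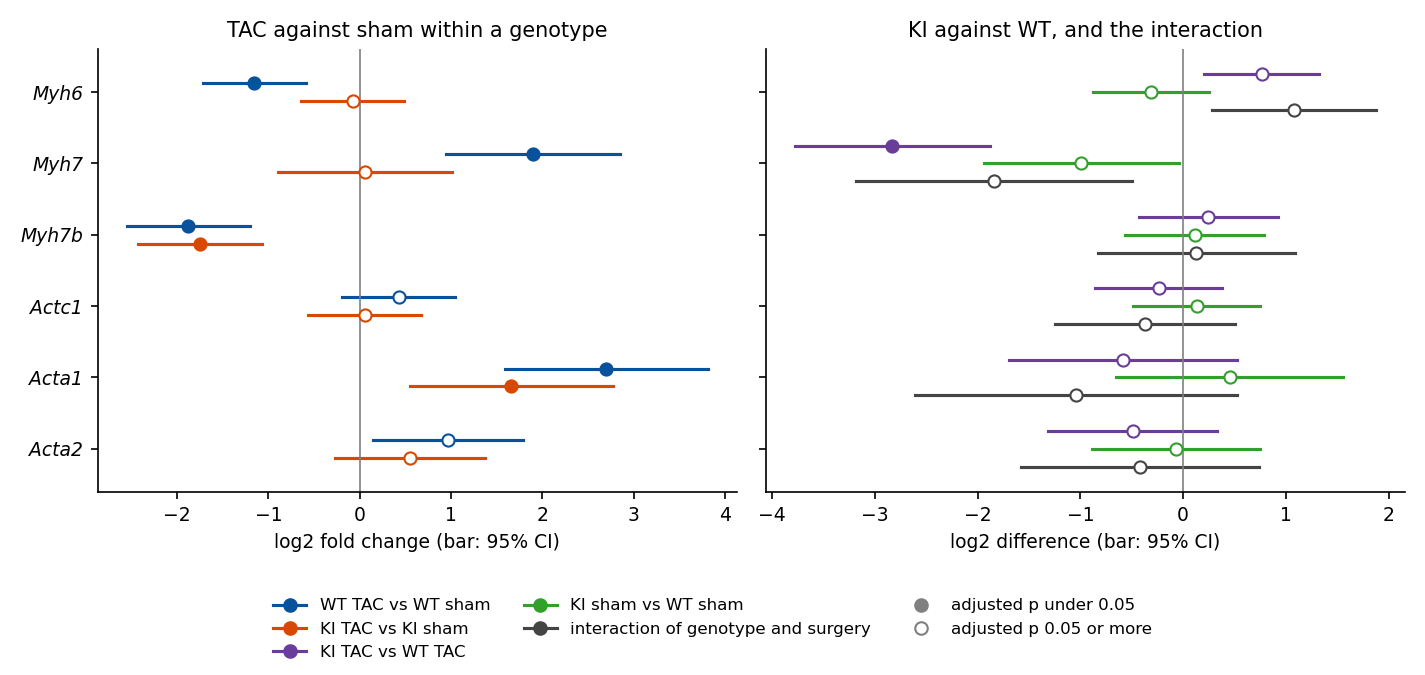
Changes of the 6 genes on the log2(RPKM + 1) scale from limma, with 95% confidence intervals: TAC against sham in each genotype on the left, KI against WT and the interaction on the right. Filled points passed an adjusted p of 0.05, as 4 genes did in WT and 2 in KI hearts on the left and 1 (Myh7, TAC hearts) on the right.

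Between the TAC groups 1 of 6 genes passed the test. Myh7 differed by −2.83 on the log2 scale, lower in the KI TAC group (adjusted p = 0.00492, standard error 0.44), against 8.13% of all genes called lower and 2.92% called higher, and no KI TAC heart reached the lowest WT TAC heart, against 19.4% of all genes without overlap and lower and 10.1% higher. This call held under every alternative tried. Myh6 was higher by 0.76 (standard error 0.26, adjusted p = 0.0735), which passed the threshold with median-ratio scaling (0.96, adjusted p = 0.0366), without WT TAC mouse 9 (0.99, adjusted p = 0.0317) and without KI TAC mouse 5 (0.99, adjusted p = 0.0495). The other four differed by −0.59 (Acta1), −0.49 (Acta2), −0.24 (Actc1) and 0.24 (Myh7b), with adjusted p = 0.406 to 0.628. In these data the median change of all genes was −0.12 between the TAC groups, −0.10 for TAC in KI hearts and −0.13 for the interaction, and about 0 with median-ratio scaling, so small differences here are to be read against that shift.

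After sham surgery 0 of 6 genes differed between KI and WT hearts by limma or by limma-voom, against 0.0178% of all genes called higher and 0% lower. Myh7 was the member with an unadjusted p under 0.05: each KI sham heart (26.5 to 33.5 RPKM) was below each WT sham heart (39.0 to 145 RPKM), against 1.19% of all genes without overlap and lower and 2.08% higher, with a log2 difference of −0.99 (unadjusted p = 0.0421, adjusted p = 1.00). Without WT sham mouse 2 that difference was −0.39.

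The interaction, which tests whether TAC acted differently in the genotypes, called 0 of 6 genes by limma or limma-voom, as it called 0% of all genes in either direction, with 1668 of them at an unadjusted p under 0.05. For Myh7 the difference in response was −1.84 log2 units (standard error 0.63, unadjusted p = 0.0108, adjusted p = 0.220) and for Myh6 1.08 (standard error 0.37, unadjusted p = 0.0117, adjusted p = 0.223). Thus 2 of 6 genes had an unadjusted p under 0.05, and those of Myh7b, Acta1, Actc1 and Acta2 were 0.776, 0.176, 0.379 and 0.449.

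The Myh6 and Myh7 locus also gives antisense and intronic RNA. Mhrt (ENSMUSG00000097652, 54968678 to 54974349), a cardiac antisense RNA that starts between the 2 genes and runs into Myh7, shares 484 exon bases with it, which are 39.9% of the Mhrt exons and 5.62% of the Myh7 exons. Its level was 16.9 ± 3.97 RPKM in WT hearts after sham against 6.29 ± 1.85 RPKM after TAC, and in KI hearts 16.1 ± 2.82 and 14.3 ± 6.99 RPKM. WT TAC hearts (4.51 to 8.20 RPKM) lay below all other hearts. The log2 fold change with TAC was −1.30 in WT (standard error 0.29, adjusted p = 0.0111) and −0.23 in KI hearts (adjusted p = 0.587), and KI TAC was above WT TAC by 1.01 (adjusted p = 0.0394), with an interaction of 1.07 (adjusted p = 0.256). Libraries were strand-specific, but the strand setting of the counting is not given in the sources used here, so reads of Mhrt and Myh7 on shared exons may not have been separated. Of the stretches of 75 bases in Myh6 and Myh7 transcripts, 132 and 206 also occur in Mhrt, on one strand or the other. Mhrt had 162 to 859 reads per heart, against 240678 to 1045173 for Myh6. How far reads of Myh6 or Myh7 entered the Mhrt values was not tested.

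The introns of the 3 myosin genes hold the precursors of a microRNA family that their host genes are known to carry, miR-208a in Myh6, miR-208b in Myh7 and miR-499 in Myh7b. The mature sequences (RefSeq, GRCm38.p6) are shown with the seed, bases 2 to 8, in capitals, since the first pair share a seed and their precursors are rows of the table.
miR-208a-3p, in Myh6: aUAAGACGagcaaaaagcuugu
miR-208b-3p, in Myh7: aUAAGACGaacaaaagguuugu
miR-499-5p, in Myh7b: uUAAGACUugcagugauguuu
Over their 22 bases miR-208a-3p and miR-208b-3p differ at 3, all outside the seed. A poly(A) library of fragmented RNA does not measure mature microRNAs, and these rows count reads over the precursors, with 3 to 54 reads per heart for Mir208a and 21 to 229 for Mir208b. The rows of this paragraph other than Mhrt were chosen after their values were seen. The Mir208b row fell with TAC in both genotypes, with log2 fold changes of −1.62 in WT (standard error 0.37, adjusted p = 0.0131) and −1.72 in KI hearts (standard error 0.37, adjusted p = 0.00501), from 42.8 to 72.3 RPKM after sham to 9.21 to 28.8 RPKM after TAC in WT hearts, in which its host Myh7 rose. It fell from 63.2 to 91.6 RPKM to 15.4 to 37.3 RPKM in KI hearts. Mir208a changed by −0.75 and −0.96 (adjusted p = 0.513 and 0.335). The antisense rows Gm31251 (523 exon bases shared with Myh7) and Gm49130 (114 shared with Myh6) also fell in both genotypes, on the log2 scale with −1.29 and −1.29 (adjusted p = 0.0170 and 0.00930) and with −1.23 and −1.13 (adjusted p = 0.0445 and 0.0392) in WT and KI hearts. The remaining antisense row, Gm29015 (142 exon bases shared with Myh7), passed in neither genotype, with −0.34 in WT (adjusted p = 0.502) and −0.88 in KI hearts (adjusted p = 0.0552). Mir499 has no row in the table, so no value can be given for it.

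**Figure D4:**
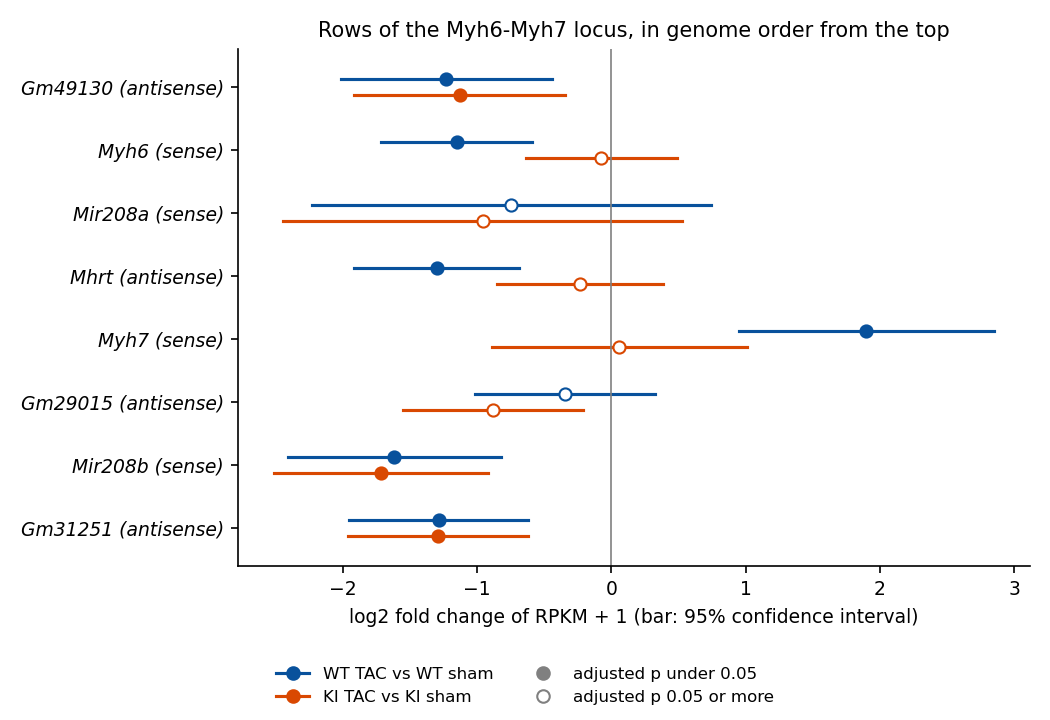
Log2 fold changes after TAC of the 8 rows of the Myh6 and Myh7 locus, in WT and KI hearts, with 95% confidence intervals, ordered along the chromosome and marked by strand relative to the myosin genes. Mir208b, Gm31251 and Gm49130 fell in both genotypes, while Myh6, Mhrt and Myh7 passed the test in WT but not in KI hearts; their interactions were not called.

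Of 10 further myosin heavy chain genes 4 were in the table: in WT hearts 0 were higher and 1 lower (the non-muscle chain Myh14, −0.91, adjusted p = 0.0284), and in KI hearts 2 were higher (the non-muscle chains Myh10, 1.09, adjusted p = 0.00290, and Myh9, 1.07, adjusted p = 0.0176) and 0 lower. The smooth muscle chain Myh11 changed by −0.085 and −0.015 (adjusted p = 0.856 and 0.970). The cytoplasmic actins rose with TAC in WT hearts. Actb, which encodes beta-actin, changed by 1.27 in WT (adjusted p = 0.0127) and 0.84 in KI hearts (adjusted p = 0.0474), and Actg1, the gamma form, by 1.14 in WT (adjusted p = 0.0250) and 0.82 in KI hearts (adjusted p = 0.0621), so that 2 of 3 other actins were called higher in WT, 1 in KI and 0 between the TAC groups. Of all genes, 6.96% were called higher and 4.60% lower in WT hearts, and 8.57% and 14.7% in KI hearts. Of 3 sarcomeric myosin light chains tested, 0 were called with TAC in either genotype, and the ventricular chain Myl2 was higher after TAC in KI than in WT hearts (0.86, adjusted p = 0.0447). The medians of these 3 lists with TAC were 0.28, 1.14 and −0.69 in WT and 0.53, 0.82 and 0.21 in KI hearts, beside medians of 0.035 and −0.10 for all genes.

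Of the factors known to control transcription of Myh6, Myh7 or the alpha-actins, 18 of 18 listed were tested. In WT hearts 0 were higher and 1 lower (Hopx, a cardiac cofactor without DNA binding of its own, −0.98, adjusted p = 0.0203), with a list median of 0.27, against 4.60% of all genes called lower and a median of 0.035. In KI hearts 0 were higher and 3 lower, a share near the 14.7% of all genes called lower, with a median of −0.28 against −0.10 for all genes: Thra, a thyroid hormone receptor (−1.01, adjusted p = 0.00545), Nkx2-5, a cardiac homeobox factor (−0.93, adjusted p = 0.0311), and Fhl2, a LIM cofactor (−0.85, adjusted p = 0.0404). Between the TAC groups 1 was higher in KI hearts (Hopx, 1.03, adjusted p = 0.0224) and 4 lower, against 2.92% and 8.13% of all genes, with a median of −0.36 against −0.12: Pura, a single-strand DNA-binding repressor of Myh6 (−1.47, adjusted p = 0.0289), the zinc finger factor Gata4 (−1.15, adjusted p = 0.0276), Nkx2-5 (−1.12, adjusted p = 0.0268) and Thra (−0.95, adjusted p = 0.0200). Serum response factor itself, Srf, was in WT hearts at 104 ± 4.41 and 138 ± 28.0 RPKM and in KI hearts at 99.6 ± 14.8 and 82.5 ± 28.8 RPKM, after sham and TAC, and passed no test. In the sham and interaction comparisons 0 of these context genes were called.

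Most of these context calls were lost when 1 mouse was left out. In WT hearts calls were lost without sham mouse 1 (Myh14, Hopx), sham mouse 2 (Actb, Actg1, Hopx), sham mouse 3 (Actb, Actg1, Myh14, Mhrt), TAC mouse 7 (Actb, Actg1, Myh14, Hopx) and TAC mouse 9 (Myh14, Hopx), with adjusted p = 0.0529 to 0.118. In KI hearts Myh10 and Thra kept their calls under every alternative, and those of Actb, Fhl2, Myh9 and Nkx2-5 were each lost without at least 3 of the 6 mice, taken 1 at a time (Actb without sham mouse 2 or 3 or TAC mouse 5 or 7, Fhl2 without sham mouse 1, 2 or 3 or TAC mouse 5 or 7, Myh9 without sham mouse 2 or 3 or TAC mouse 5, and Nkx2-5 without sham mouse 1 or 2 or TAC mouse 5 or 6), with adjusted p = 0.0526 to 0.179 over the alternatives that lost a call. Between the TAC groups every context call was lost without WT TAC mouse 7 and without KI TAC mouse 6, with adjusted p = 0.0526 to 0.163 over the alternatives that lost a call.

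Some markers of other cell types differed between the same groups, and their part in these results was not tested. The summed cardiomyocyte markers were 4402 to 6317 RPKM in WT sham, 3324 to 3524 in WT TAC, 3844 to 6794 in KI sham and 4771 to 6433 in KI TAC hearts. Of the 7 cardiomyocyte markers 0 were called with TAC in WT hearts (median −0.50) and 1 was called lower in KI hearts (Pln, −0.93, a call lost when any 1 sham mouse or TAC mouse 5 or 7 was left out), where 14.7% of all genes were called lower. Between the TAC groups 2 of 7 were called higher in KI hearts (Tnni3, 0.95, and Myl2), against 2.92% of all genes. Pln and Ryr2 had negative differences (−0.28 and −0.20, adjusted p = 0.523 and 0.677). The 3 myofibroblast markers in the table summed to 11.7 to 15.0 RPKM in WT sham, 42.8 to 187 in WT TAC, 10.3 to 26.0 in KI sham and 17.0 to 26.2 in KI TAC hearts. Of these, 3 of 3 were called higher in WT (Tnc, Postn and Fn1) and 1 of 3 (Tnc, 1.84) in KI hearts, against 6.96% and 8.57% of all genes. The WT call of Postn was lost without WT sham mouse 1 or TAC mouse 7 and in the fit of the 2 groups compared. Of 6 fibroblast markers 0 were called in WT hearts, where their sum went from 113 to 171 RPKM after sham to 134 to 610 RPKM after TAC, and 1 was lower in KI hearts (Lum, −1.14, adjusted p = 0.0476), a call lost without any 1 of the 6 mice. The 3 macrophage markers summed to 21.9 to 27.0 and 32.7 to 54.9 RPKM in WT and 22.6 to 27.4 and 18.2 to 26.4 RPKM in KI hearts after sham and TAC. Of these, 2 were called higher in WT (Cd68 and Adgre1) and 1 lower in KI hearts (Csf1r, −0.53). The call of Adgre1 was lost without any 1 sham mouse or TAC mouse 10, and that of Csf1r without any 1 of the 6 KI mice. Of 4 pericyte markers 1 was higher in WT hearts (Cspg4, 0.90, a call lost without any 1 sham mouse or TAC mouse 7 or 9), and 0 of 3 endothelial markers were called. Between the TAC groups, where Myh7 was lower in KI hearts, 2 of 3 myofibroblast markers (Tnc, −2.41, and Fn1, −1.97), 2 of 3 macrophage markers (Adgre1, −1.15, and Csf1r, −0.91), 1 of 4 pericyte markers (Cspg4, −0.80) and 1 of 6 smooth muscle markers (Cnn1, −0.98) were also lower in KI hearts, against 8.13% of all genes. Of the fibroblast markers 0 of 6 were called. Without KI TAC mouse 6 the calls of Adgre1, Csf1r, Cspg4, Cnn1, Tnni3, Myl2 and Tnnt1 were lost. The calls of Cspg4, Cnn1, Tnni3, Myl2 and Tnnt1 were also lost without WT TAC mouse 7 or 10. Myl2 lost its call without any 1 TAC mouse, Tnni3 without any 1 except WT mouse 9, and Cspg4 without any 1 except KI mouse 7. Quantile normalization also lost the calls of Myl2, Tnni3 and Cspg4. The calls of Tnc and Fn1 held when any 1 mouse was left out. In the fit of the 2 groups compared the calls of Tnc, Adgre1, Csf1r, Cspg4, Cnn1 and Tnnt1 were lost (adjusted p = 0.0526 to 0.108). Tnnt1, the slow skeletal troponin T, was higher after TAC in KI than in WT hearts by 0.74 (adjusted p = 0.0244) at a level of at most 3.31 RPKM in every heart.

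Across the 12 hearts, which share surgery and genotype and so are given without a test, each member had its own nearest genes by Pearson r of log2(RPKM + 1). For Myh6 they were Hadha (0.96), Got2 (0.93), Etfdh, Csl and Ephx2 (0.91 each), of which Hadha and Etfdh encode enzymes of mitochondrial fatty acid oxidation and Got2 a mitochondrial aminotransferase. For Myh7 they were Celf2 (0.88), Praf2 (0.88), Snap91 (0.87), Smpdl3b (0.82) and Fn1, which encodes fibronectin (0.82). Those of Myh7b were Asb14 (0.99), Armc2 (0.98), Rab3a, Them6 and Ttll1 (0.97 each). Acta1 was closest to Wdr1, an actin-disassembly factor (0.95), Gnb1, Ncf4 and Necap1 (0.94 each) and Alox5ap (0.93). Actc1 was closest to Ap1s2 (0.92), Calr, Selenof, Cdc16 and Mcm6 (0.88 each), and Acta2 to C1qtnf6, Tpcn2, Slc25a5, Slc30a5 and Tnfrsf23 (0.91 to 0.94). Between members r ran from −0.85 (Acta1 and Myh7b) to 0.79 (Acta1 and Acta2), and it was −0.60 for Myh6 and Myh7 and 0.57 for Acta1 and Actc1.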

How the data were processed

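Poly(A)-selected RNA from 12 hearts was sequenced as single reads of 75 bases from strand-specific libraries. Per the labels and methods, the authors trimmed reads with Trimmomatic 0.39, mapped them to GRCm38 with HISAT2 2.2.1, counted them on genes with HTSeq 0.6.1 and tested with edgeR 3.18.1. The strand setting of the counting and the step to the deposited values are not given in the sources used here. The deposited values are in RPKM, since values times exon length (GENCODE M21) summed to 997559 to 1002031 in each heart. Recovered in this way, 97.2% to 98.1% of low values were whole numbers of reads (within the rounding of the file), which gave the depths and the reads behind each value. No filter that left the 13552 genes is stated.

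Here, genes reaching 1 RPKM in 3 or more hearts (11240) were tested on log2(RPKM + 1) by limma 3.58.1 (R 4.3.3) in a single model of 4 groups and 12 mice, with trended moderation of the variance, with Benjamini-Hochberg adjustment over all genes and a threshold of 0.05. A fold change on this scale understates changes of low genes. Ratios used exact two-sided permutation tests of mean log2 ratios, which at 3 against 3 cannot go below p = 0.1. The null of the permuted difference of responses covers any genotype effect. Alternatives were a pseudocount of 0.1, no filter, median-ratio scaling, quantile normalization, limma-voom on recovered reads, a fit of the 2 groups compared, leaving out each mouse, and a replicate block for the sham groups. Mice keep the numbers of their titles, and P-values measure the spread between separate mice.

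The members and lists were chosen with earlier results of these data known. By rule the text names the 6 members, the genes of each context list past the threshold (at most 5 per list and comparison) and the 5 genes most correlated with each member, predicted genes passed over. The model was tested on simulated data before use. Sequences came from RefSeq tables, in which all 6 members matched, and plots were drawn with matplotlib 3.10.9 in Python 3.11.15.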

Additional observations from a re-analysis of the deposited data

How the results depend on the processing

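The 7 member changes past the threshold were computed under 84 alternative settings in all, with the same direction and call in 75 and the call lost in 9, which are named in the report; the 23 others gave 312 values, of which 3 passed the threshold and 19 changed sign. With quantile normalization 1 member was called for TAC in KI hearts (2 in the main analysis), and with median-ratio scaling 2 between the TAC groups (1). Leaving out a mouse gave 1 to 2 in both comparisons. The number of genes called was 1299, 2620, 1242, 2 and 0 for TAC in WT, TAC in KI, the TAC groups, the sham groups and the interaction. Over left-out mice it ran from 582 (without WT TAC mouse 7) to 1505, from 1448 (without KI sham mouse 3) to 2727, from 154 (without WT TAC mouse 7) to 1812 and, for the interaction, from 0 to 232 (without WT TAC mouse 9), with 183 without KI TAC mouse 7. Over the other pseudocount, filter and scalings it was 1264 to 1560, 2693 to 2926 and 1136 to 1319 for TAC in WT, TAC in KI and the TAC groups. Fits of the 2 groups compared called 216 between the TAC groups and 5 between the sham groups, and limma-voom called 1272, 2717, 1345, 2 and 0. With deposited values 60.2%, 36.8% and 26.4% of the calls for TAC in WT, TAC in KI and the TAC groups were higher, against 50.2%, 55.0% and 58.6% with median-ratio scaling and 48.1%, 48.3% and 46.0% with quantile normalization. The cause of these changes was not tested.

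Changes below the threshold that changed sign, with their range over left-out mice, were for TAC in KI hearts the Myh7 to Myh6 ratio (−0.12 to 0.52 log2 units), Actc1 (−0.10 to 0.15), Mhrt (−0.58 to 0.0030), Myh7 (−0.21 to 0.35) and Myh6 (−0.22 to 0.15, and 0.092 and 0.22 with median-ratio scaling and quantile normalization). Between the TAC groups they were the Acta1 to Actc1 ratio (−0.87 to 0.022), Actc1 (−0.58 to 0.042) and Myh7b (−0.044 to 0.62), and between the sham groups the Acta1 to Actc1 ratio (−0.13 to 0.55), Acta1 (−0.062 to 0.79), Acta2 (−0.41 to 0.18), Mhrt (−0.17 to 0.12), Myh7b (−0.015 to 0.36) and, with quantile normalization, Actc1 (−0.21). For the interaction it was Myh7b (−0.16 to 0.50).

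Same-numbered hearts (1, 2 and 3) of the sham groups correlated at −0.225, −0.302 and 0.44 in their deviations from the group means. Differently numbered hearts correlated at −0.35 to 0.434. With means of 3 mice this cannot settle whether the numbers pair the mice. With the number as a replicate block 0 members and 0 genes were called between the sham groups, the paired difference was −0.69 log2 units for the Myh7 to Myh6 ratio (exact p = 0.5) and 0.32 for the Acta1 to Actc1 ratio (exact p = 0.75), and no call of a member changed. The TAC groups share a single number, so no pairing was possible there.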

Other observations

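The alpha-actins and the myosin heavy chains build partner filaments, and alpha-actin per myosin heavy chain was higher in each WT TAC heart than in the WT sham hearts. The 3 myosin heavy chains summed to 4206 ± 756 RPKM in WT sham, 2137 ± 543 RPKM in WT TAC, 3325 ± 240 RPKM in KI sham and 3218 ± 802 RPKM in KI TAC hearts, and the 3 alpha-actins to 9888 ± 1373, 14794 ± 5856, 10902 ± 1585 and 11799 ± 2117 RPKM. Per summed myosin heavy chain the alpha-actins were 2.28 to 2.48 in WT sham, 3.20 to 9.82 in WT TAC, 2.54 to 3.75 in KI sham and 3.06 to 4.51 in KI TAC hearts. Every KI sham and KI TAC heart was also above the highest WT sham heart. WT TAC mouse 9, with 3.20, lay within the range of the KI hearts, and the remaining WT TAC hearts, with 9.41 and 9.82, were above every other heart. These sums were chosen after the data were seen and were not tested.

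Myh6 kept 87.7 ± 5.62% of the family in WT TAC hearts against 97.8 ± 1.31% in WT sham hearts, so Myh7 remained a minor isoform in every heart at 9 h, at most 17.7% of the 3 chains by RPKM. Without division by exon length, WT TAC mouse 10 had 85427 reads on Myh7 and 309455 on Myh6.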
